A study of Mus musculus with 9 samples.

Results

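Expression of prostaglandin synthesis and receptor genes was followed in C2C12 myotubes in which 1 of the 2 splice isoforms of the histone variant macroH2A1 had been depleted. The 10 genes were chosen by name for their place in the pathway, as phospholipases, cyclooxygenases, prostaglandin synthases and receptors, with results of the same comparisons already known, and all 10 were found among the 52780 genes of the count table. A count was present in at least 1 library for all 10, and 9 passed the filter on low counts, together with 19545 genes in all. Because of the way the members were chosen, their fold changes and adjusted p-values describe them and are no test of the pathway.

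C2C12 is an immortal mouse myoblast line that fuses into multinucleated myotubes when serum is lowered. The 3 groups, with 3 libraries each, were all collected at day 4 of differentiation: control cells, labelled wild type, and cells that had received 10 nM siRNA against macroH2A1.1 (si mH2A1.1) or against macroH2A1.2 (si mH2A1.2), delivered repeatedly from the day before differentiation. The labels do not say whether the control cells received a control siRNA. Polyadenylated RNA was sequenced, and each library held between 36924252 and 42223108 counts.

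Prostaglandins are made from arachidonic acid, which phospholipases A2 free from membrane lipids. Cyclooxygenases turn it into prostaglandin H2, terminal synthases convert that intermediate into prostaglandin D2, E2, F2α or prostacyclin, and the products signal through G protein-coupled receptors on the same or neighbouring cells. In skeletal muscle, prostaglandins are known for roles in myoblast proliferation, survival and fusion, and in regeneration after injury.

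H2afy, the gene of both macroH2A1 isoforms, was counted as 1 gene, so these counts do not separate the isoforms. It was at 59.9 ± 3.18 CPM (counts scaled to a common library size with the trimmed mean of M-values, given as mean ± SD with n = 3) in control, 33.3 ± 4.87 in si mH2A1.1 and 45.7 ± 2.20 in si mH2A1.2. H2afy fell with si mH2A1.1 (log2 fold change −0.85, edgeR adjusted p = 0.00331). The value for si mH2A1.2 was −0.39 and did not pass (edgeR adjusted p = 0.108). The labelled cell type was checked with 10 myotube markers, each above 3 counts in some library of every group, whose summed level, mostly Myh3 and Acta1, lay between 12606 and 19363 CPM over the libraries. Of the 10, Myog (666 to 421 CPM, log2 fold change −0.66, edgeR adjusted p = 0.0204) and Mymx (74.2 to 41.9 CPM, −0.82, edgeR adjusted p = 0.0221) fell with si mH2A1.1, and both calls were lost without control replicate 2 or 3 or si mH2A1.1 replicate 1 or 3 (edgeR adjusted p up to 0.0662 and 0.0857). Others, named after their values were seen, did not pass. Ckm (341 to 463 CPM) and Des (1219 to 1668 CPM) had every si mH2A1.1 library above every control, and Myh3 (6781 to 4673 CPM) had every one below. With si mH2A1.2, Tnnt3 (−0.96, edgeR adjusted p = 0.028) and Des (−0.62, edgeR adjusted p = 0.0466) fell, Tnnt3 losing its call without control replicate 1 or 3 or si mH2A1.2 replicate 1 or 2 (up to 0.106) and Des in 8 of the 9 fits, all but the one without si mH2A1.1 replicate 1 (up to 0.1597). The summed level of 7 myoblast or reserve cell markers was 503 to 757 CPM in control, 883 to 1225 CPM in si mH2A1.1 and 460 to 875 CPM in si mH2A1.2. The sum was mostly Cdh15 (329 CPM in control and 652 in si mH2A1.1) and Mki67 (103 and 186). Myod1 was at 78.5 and 85.4 CPM and Id3 at 12.9 and 7.94. In si mH2A1.1 against control 0 of the 7 passed by edgeR, and DESeq2 called 2. The part of these markers in the results was not tested. In bulk RNA, fewer cells of a type and less RNA per cell cannot be told apart.

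Knockdown of macroH2A1.1 went with lower Pla2g4a, Ptgs2 and Ptgds and with counts of Pla2g5 where the other groups had none. In the macroH2A1.2 knockdown Ptgds alone among the members fell, by more than with si mH2A1.1. Between the knockdowns, Pla2g4a, Ptgs2 and Ptgfr were lower and Pla2g5 and Ptgds higher with si mH2A1.1. The genes at an adjusted p below 0.05 (edgeR quasi-likelihood test, Benjamini-Hochberg adjustment over all genes tested) are said to have changed. In si mH2A1.1 against control they were 4 of the 9 members tested, 1 higher and 3 lower, where 11.1% of all genes changed (6.18% higher and 4.93% lower). In si mH2A1.2 against control 1 member changed, lower, where 2.35% of all genes did (1.37% higher and 0.982% lower). In si mH2A1.1 against si mH2A1.2 they were 5 members, 2 higher and 3 lower, where 22.5% of all genes changed (12.0% higher and 10.5% lower). Since the members were named with these contrasts known, nothing is read from these counts against the shares of all genes. Pla2g5 had to differ, since only the si mH2A1.1 libraries brought it past the filter on low counts. Without it 3 of 8 members changed in si mH2A1.1 against control, all lower, and 4 of 8 between the knockdowns, 1 higher and 3 lower in si mH2A1.1. The 3 comparisons share their libraries, so they are not independent of each other. The median log2 fold change of the members tested was 0.16, 0.12 and 0.15 in the same order, with Pla2g5 ranked highest where it was tested and left out where it was at 0 in both groups, and over all genes tested it lay within 0.01 of 0. Without Pla2g5 it was −0.31, 0.12 and 0.09.

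**Figure D1:**
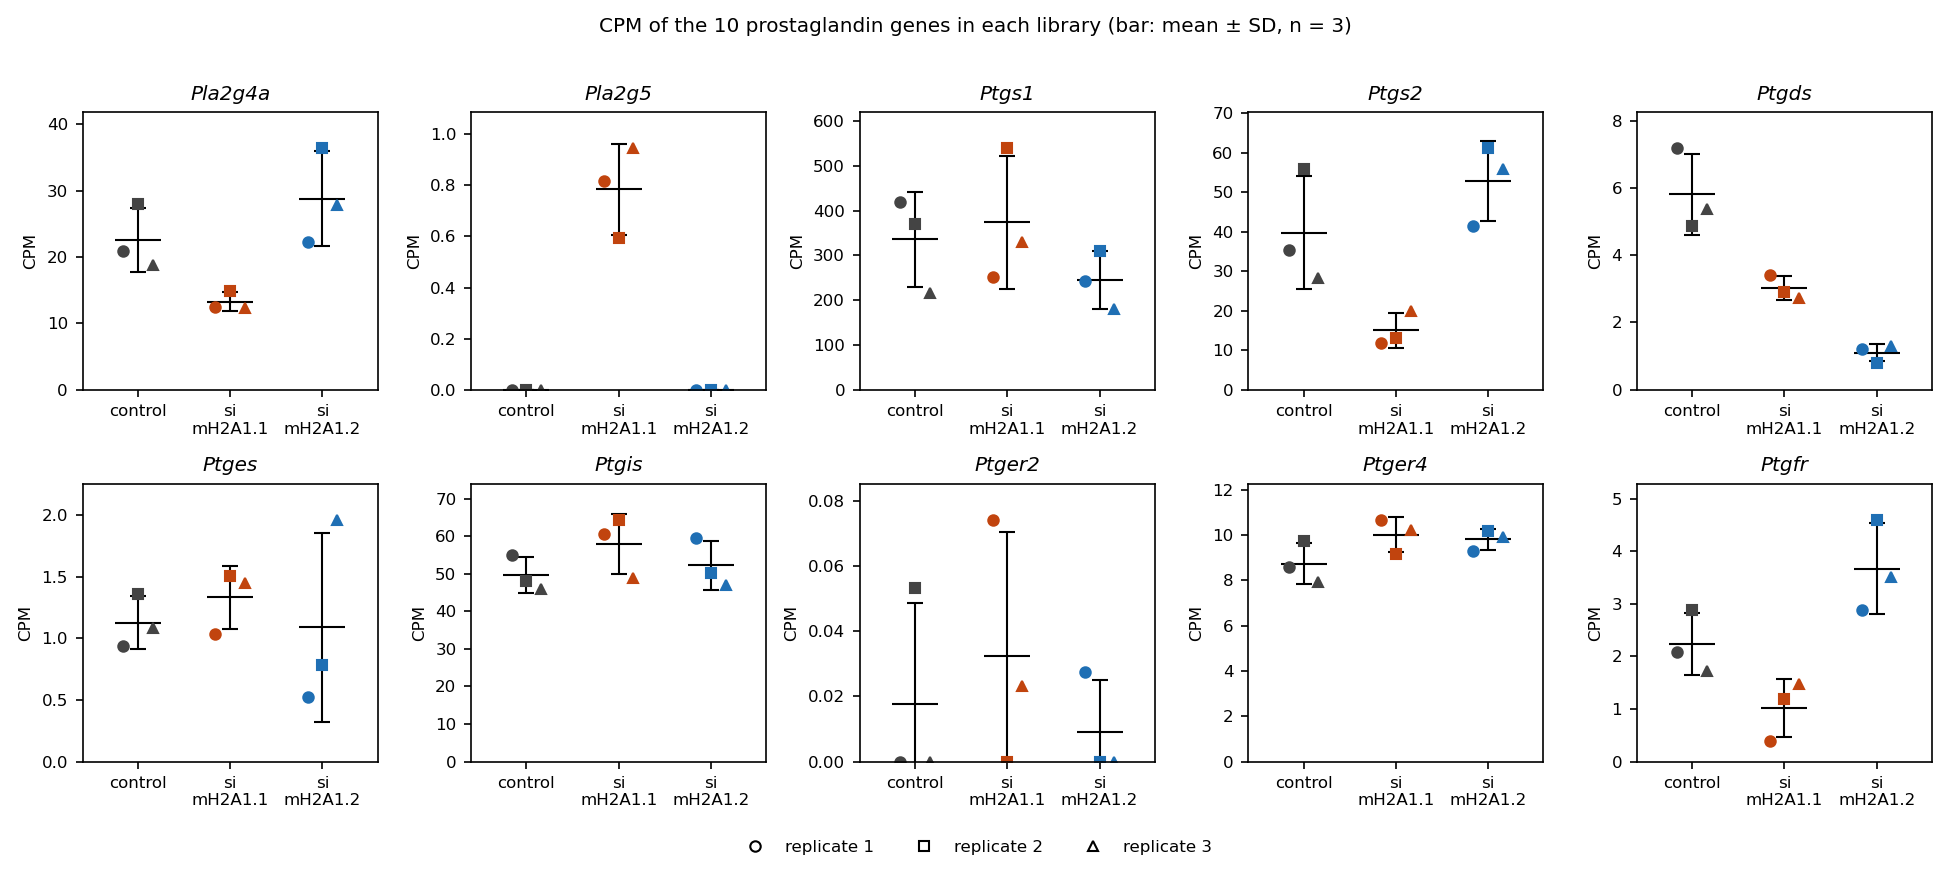
CPM of the 10 members in each of the 9 libraries, 1 panel per gene with its own linear axis from 0. Points are libraries, their shape gives the replicate number, and bars give the mean ± SD of 3 libraries. The si mH2A1.1 points of Pla2g4a and Ptgs2 lie below all others, Pla2g5 is above 0 only in si mH2A1.1, and Ptgds steps down from control to si mH2A1.1 to si mH2A1.2.

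Of the phospholipases, Pla2g4a encodes the cytosolic, calcium-regulated enzyme that frees arachidonic acid for prostaglandin synthesis in most cells. It lies on the minus strand of chromosome 1 (chr1:149829618-149961290, GRCm38, GENCODE M21). In control libraries it stood at 20.96, 28.1 and 18.8 CPM. With si mH2A1.1 the values were 12.5, 14.9 and 12.4 CPM, all below the lowest control. With si mH2A1.2 they were 22.2, 36.4 and 27.8 CPM, which overlaps the control range. Pla2g4a thus fell with si mH2A1.1 (log2 fold change −0.77 ± 0.20 SE, edgeR adjusted p = 0.0355), while si mH2A1.2 gave 0.35 ± 0.20 (edgeR adjusted p = 0.432). Between the knockdowns the difference was larger, at −1.12 ± 0.20 (edgeR adjusted p = 0.00414). The call of si mH2A1.1 against control depended on single libraries. Its edgeR adjusted p was 0.0569, 0.133 and 0.0504 without control replicate 1, 2 or 3, and 0.126 and 0.117 without si mH2A1.1 replicate 1 or 3, with log2 fold changes from −0.90 to −0.59. Over all 9 libraries the adjusted p was 0.0047 in edgeR with the replicate number as a block and 0.0052 by DESeq2.

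Pla2g5, a secreted phospholipase A2, showed the other pattern. It had 0 counts in all 3 control and all 3 si mH2A1.2 libraries, and 33, 24 and 41 counts in the si mH2A1.1 libraries (0.784 ± 0.178 CPM). All 3 si mH2A1.1 libraries were therefore above every other library, although the gene stayed among the least expressed members. Set against 3 counts per library, Pla2g5 was at least 9.97-fold higher in si mH2A1.1 than in control and at least 9.91-fold higher than in si mH2A1.2 (edgeR adjusted p = 0.00468 and 0.00174). It passed the filter on low counts only through the si mH2A1.1 libraries, so it had to differ, and nothing rests on these p-values. No fold change was computed for si mH2A1.2 against control, where both groups were at 0. Pla2g2a, which lies inside the Pla2g5 locus on chromosome 4, had 0 counts in all 9 libraries.

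Interferon-stimulated genes were also higher in the si mH2A1.1 libraries. The summed level of 10 such genes was 51.8 to 63.3 CPM in control, 339, 193 and 662 CPM in si mH2A1.1 replicates 1 to 3, and 53.9 to 75.6 CPM in si mH2A1.2. The si mH2A1.1 libraries came in the same order for this sum and for Pla2g5. That order rests on 3 libraries at 33, 24 and 41 counts of Pla2g5, and nothing is read from it. All 10 were higher in si mH2A1.1 against control, with a median log2 fold change of 3.48, although Mx1, the one that lost its call with libraries left out, had an edgeR adjusted p of up to 0.074 without control replicate 2 or 3 or si mH2A1.1 replicate 1 or 3. In si mH2A1.2 none changed by edgeR, 1 of the 10 had an unadjusted p below 0.05 (3109 of all 19545 genes did), and DESeq2 called 1. Since Pla2g5 is also a gene of macrophages, 5 macrophage markers were summed: 2.86 to 4.05 CPM in control, 6.10 to 11.4 in si mH2A1.1 and 3.44 to 3.63 in si mH2A1.2. Nearly all of this sum was Cd68, a lysosomal protein, at 10.6, 5.73 and 11.1 CPM in si mH2A1.1, Tyrobp and Adgre1 had 0 counts in all 9 libraries, except 1 count of Adgre1 in si mH2A1.2 replicate 3. Csf1r had 4 to 16 counts and Ptprc 1 to 9 counts per library. What part the interferon-stimulated genes or the macrophage markers have in the Pla2g5 result was not tested.

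The 250 bases before the annotated start sites of both phospholipases are shown, since the genes moved in opposite directions with the same siRNA (RefSeq, GRCm38.p6, strand of the gene, 5′ to 3′). Each gene has 2 annotated starts. The Pla2g4a windows are chr1:149961291-149961540 and chr1:149922440-149922689, and the Pla2g5 windows are chr4:138863483-138863719, cut by 13 bases where an exon begins, and chr4:138819258-138819507, all on the minus strand. Capitals in the second Pla2g4a window mark TATAAA on the other strand.
Pla2g4a start 1: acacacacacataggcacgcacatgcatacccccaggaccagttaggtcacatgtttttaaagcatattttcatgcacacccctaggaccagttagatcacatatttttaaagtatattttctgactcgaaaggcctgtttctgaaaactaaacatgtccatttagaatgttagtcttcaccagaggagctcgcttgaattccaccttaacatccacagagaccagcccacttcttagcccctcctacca
Pla2g4a start 2: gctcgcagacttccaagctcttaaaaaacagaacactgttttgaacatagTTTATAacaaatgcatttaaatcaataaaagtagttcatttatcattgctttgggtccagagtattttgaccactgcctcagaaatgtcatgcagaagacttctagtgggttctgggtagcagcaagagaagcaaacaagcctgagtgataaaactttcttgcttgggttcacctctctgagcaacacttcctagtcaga
Pla2g5 start 1: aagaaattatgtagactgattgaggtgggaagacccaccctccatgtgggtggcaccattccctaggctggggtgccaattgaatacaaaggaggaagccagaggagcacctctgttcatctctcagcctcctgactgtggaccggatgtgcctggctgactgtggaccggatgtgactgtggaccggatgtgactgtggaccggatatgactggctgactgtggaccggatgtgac
Pla2g5 start 2: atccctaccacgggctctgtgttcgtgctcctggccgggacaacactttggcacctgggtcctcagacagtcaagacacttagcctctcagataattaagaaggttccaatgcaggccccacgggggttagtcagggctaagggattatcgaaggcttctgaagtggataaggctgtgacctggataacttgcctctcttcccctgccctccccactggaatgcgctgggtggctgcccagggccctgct
The first Pla2g5 window holds the 15-base word gactgtggaccggat 5 times, and 0.149% of all 32841 promoter windows of this length hold any 15-base word as often.

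The cyclooxygenases are encoded by Ptgs1, the constitutively expressed enzyme, and Ptgs2, the inducible one. Ptgs2 (chr1:150100031-150108227, plus strand) stood at 35.4, 55.8 and 28.3 CPM in control. With si mH2A1.1 it was at 11.9, 13.2 and 20.0 CPM, and again every library was below the lowest control. With si mH2A1.2 the libraries held 41.4, 61.1 and 56.0 CPM, a range that overlaps that of the controls. Ptgs2 fell with si mH2A1.1 by 1.41 ± 0.27 (SE) on the log2 scale (edgeR adjusted p = 0.0134). It was also below si mH2A1.2, by a log2 fold change of −1.81 ± 0.27 (edgeR adjusted p = 0.00189). Its log2 fold change of 0.41 ± 0.26 in si mH2A1.2 against control did not pass (edgeR adjusted p = 0.501). Without si mH2A1.1 replicate 1 the adjusted p of si mH2A1.1 against control was 0.0611, with a log2 fold change of −1.26.

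Ptgs1 was the most abundant member and varied widely within groups. Its levels were 419.7, 371 and 216 CPM in control, 253, 539 and 329.7 CPM in si mH2A1.1 and 243, 309.5 and 181 CPM in si mH2A1.2. The ranges of all 3 groups overlapped. The log2 fold changes of Ptgs1 against control were 0.16 ± 0.31 (si mH2A1.1) and −0.46 ± 0.31 (si mH2A1.2), neither of which passed (edgeR adjusted p = 0.777 and 0.53). For si mH2A1.1 the sign turned without control replicate 3 (−0.091) or without si mH2A1.1 replicate 2 (−0.21).

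Counts scaled by exon length allow both cyclooxygenases to be set beside each other. Ptgs2 made up 6.67, 11.3 and 9.98% of the summed cyclooxygenase level in control (9.32% ± 2.39). In si mH2A1.1 its share was 3.83, 2.03 and 4.89% (3.58% ± 1.44), and in si mH2A1.2 it was 12.6, 14.3 and 20.7% (15.9% ± 4.28). The 3 ranges did not overlap, with si mH2A1.1 lowest and si mH2A1.2 highest. Ptgs1 mRNA thus remained the larger part in every library. Scaled by the longest transcript instead, the mean shares were 7.25, 2.75 and 12.6% in the same order.

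**Figure D2:**
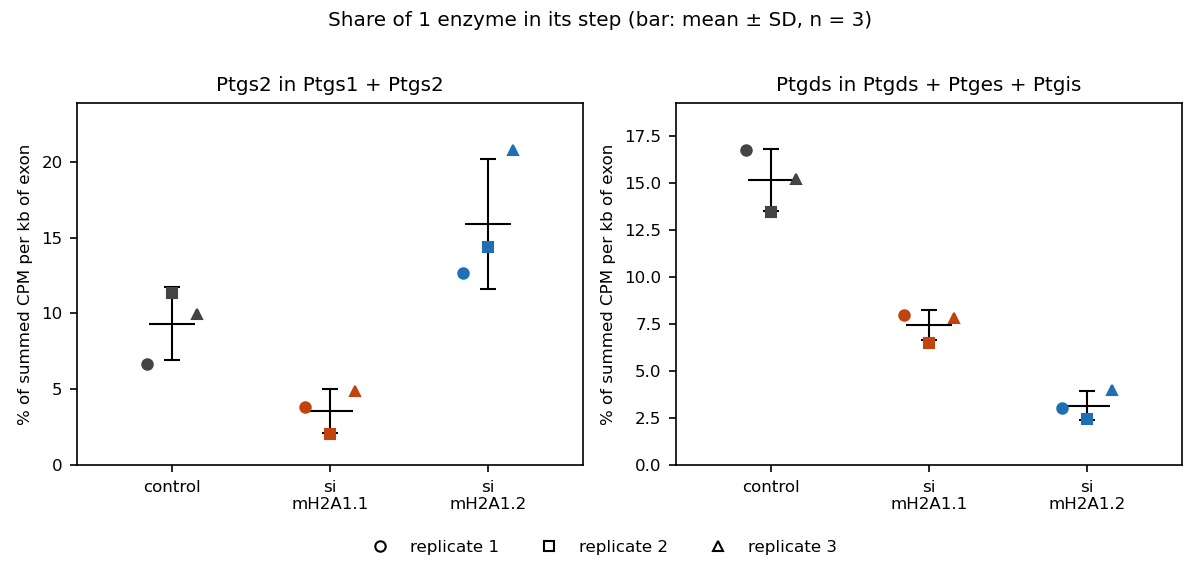
Share of Ptgs2 in the summed cyclooxygenase level and of Ptgds in the summed level of Ptgds, Ptges and Ptgis, as percent of CPM per kb of exon on linear axes from 0. Points are libraries, their shape gives the replicate number, and bars give the mean ± SD of 3 libraries. The Ptgs2 share is lowest in si mH2A1.1 and highest in si mH2A1.2, and the Ptgds share is highest in control and lowest in si mH2A1.2.

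Pla2g4a and Ptgs2 are neighbours on chromosome 1, with 138740 bases and 3 annotated genes between them. Of those 3 genes only Ptgs2os, a transcript antisense to the Ptgs2 promoter region that was picked here after its values were seen, passed the filter. It was at 0.155 to 0.453 CPM in control, 0.173 to 0.253 in si mH2A1.1 and 0.303 to 0.705 in si mH2A1.2, and it passed the test in none of the 3 comparisons. Over the 9 libraries, log2 CPM of Ptgs2 correlated with that of Pla2g4a (Pearson r = 0.935) and with that of Ptgfr (r = 0.929), values that describe libraries of 3 groups and carry no test. The window before the Ptgs2 start, chr1:150099781-150100030, is shown beside the Pla2g4a windows given above because both genes fell with si mH2A1.1. Capitals mark TTGCNNAA, the core of a C/EBP site, which lies 69 to 62 bases before the start. Of the window, 183 bases lie in a Ptgs2os exon.
Ptgs2: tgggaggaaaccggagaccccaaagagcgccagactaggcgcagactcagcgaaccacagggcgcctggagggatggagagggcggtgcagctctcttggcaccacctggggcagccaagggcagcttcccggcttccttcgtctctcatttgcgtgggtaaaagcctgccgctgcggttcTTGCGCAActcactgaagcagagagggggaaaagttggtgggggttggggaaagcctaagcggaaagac
The motifs searched on both strands were TATAAA (the TATA box), TGACGTCA (the cAMP response element), CACGTG (an E-box), CAGCTG (the E-box of myogenic factors), TTGCNNAA (C/EBP), TGANTCA (AP-1) and GAAANNGAA (interferon regulatory factors), none of which overlapped another in these windows. Pla2g4a and Ptgs2 had no motif in common. Of the 11 windows of 9 members, 8 held none of the 7 motifs. Over all promoter windows, TTGCNNAA was found in 9.57% and TATAAA in 12.4%. A match describes these letters only.

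A summed level of 7 fibroblast markers followed the same order as Ptgs2, Pla2g4a and Ptgfr. It was 10317 to 13470 CPM in control, 3710 to 6657 CPM in si mH2A1.1 and 17268 to 23916 CPM in si mH2A1.2, without overlap. In si mH2A1.1 against control 4 of the 7 markers fell and none rose by edgeR, where 4.93% of all genes fell and 6.18% rose. The call of Col3a1 was lost without control replicate 2 or si mH2A1.1 replicate 1 or 3 (edgeR adjusted p up to 0.0612). In si mH2A1.2 against control none of the 7 changed by edgeR, 4 had an unadjusted p below 0.05, DESeq2 called 1, and with the replicate number as a block Col1a1 alone passed (edgeR adjusted p = 0.0426). Of all 19545 genes tested, 3109 had an unadjusted p below 0.05 in that comparison. The sum was mostly Col3a1 and Col1a1, matrix genes that myogenic cells can also express. Not all markers followed its order. Lum was at 16.04 CPM in control, 2.41 in si mH2A1.1 and 11.2 in si mH2A1.2, and in si mH2A1.1 against control Dcn (329 and 342 CPM in control and si mH2A1.1), Pdgfra (12.6 and 13.6 CPM) and Thy1 (0.511 and 0.452 CPM) did not pass. Smooth muscle markers, 4 in all and named after their values were seen, partly shared the order of the sum. In control, si mH2A1.1 and si mH2A1.2, Acta2 was at 2074, 1798 and 2603 CPM and Tagln at 53.3, 21.4 and 155. Cnn1 was at 1.30, 0.931 and 6.05 CPM, and Myh11, which did not share the order, at 0.553, 0.326 and 0.321. The part of all these genes in the results was not tested.

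Among the terminal synthases, Ptgds encodes the lipocalin-type prostaglandin D synthase, a secreted protein that also carries lipophilic ligands. It was the only member lower in both knockdowns. Control libraries held 7.17, 4.88 and 5.36 CPM. With si mH2A1.1 the values were 3.41, 2.91 and 2.72 CPM, and with si mH2A1.2 they were 1.21, 0.81 and 1.29 CPM. No group overlapped another. The log2 fold change against control was −0.95 ± 0.22 for si mH2A1.1 (edgeR adjusted p = 0.0261) and −2.39 ± 0.24 for si mH2A1.2 (edgeR adjusted p = 0.00481). The decrease was larger with si mH2A1.2, where the direct comparison put si mH2A1.1 higher by 1.45 ± 0.24 (edgeR adjusted p = 0.00282). The smaller decrease depended on single libraries. For si mH2A1.1 the edgeR adjusted p was 0.0702, 0.0511 and 0.0572 without control replicate 1, 2 or 3, and 0.0591 and 0.0938 without si mH2A1.1 replicate 1 or 3. Over all 9 libraries the adjusted p of si mH2A1.1 was 0.0104 in edgeR with the replicate number as a block and 0.0014 by DESeq2. The call of si mH2A1.2 held without any 1 library.

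Ptgds (chr2:25466709-25470046, minus strand) is shown from 250 to 94 bases before its RefSeq start, chr2:25469843-25469999, since the remaining 93 bases are exonic in GENCODE. The capitals mark both matches to CAGCTG, an E-box of the kind that myogenic factors bind, a motif present in 4270 of the 32841 promoter windows.
Ptgds: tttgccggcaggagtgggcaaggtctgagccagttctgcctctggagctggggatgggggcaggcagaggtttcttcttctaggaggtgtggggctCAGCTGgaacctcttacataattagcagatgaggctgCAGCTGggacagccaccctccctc
A TGANTCA match lay in the exonic stretch, 35 to 29 bases before the start.

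Ptges, the inducible microsomal prostaglandin E synthase, was scarce, at 0.94, 1.36 and 1.08 CPM in control. It was at 1.04, 1.51 and 1.45 CPM in si mH2A1.1 and at 0.52, 0.78 and 1.96 CPM in si mH2A1.2, with overlapping ranges. Ptgis, the prostacyclin synthase, was far more abundant, at 55.0, 48.0 and 45.8 CPM in control. Its values were 60.5, 64.3 and 48.9 CPM in si mH2A1.1 and 59.5, 50.2 and 47.1 CPM in si mH2A1.2. Neither gene passed the test in any comparison. The log2 fold changes of Ptges against control were 0.24 ± 0.42 in si mH2A1.1 and −0.05 ± 0.43 in si mH2A1.2, at edgeR adjusted p = 0.739 and 0.973. Those of Ptgis were 0.22 ± 0.13 and 0.07 ± 0.13 (edgeR adjusted p = 0.284 and 0.845). Per kb of exon, Ptgis made up 83.6% ± 1.32 of the 3 synthases in control, 91.2% ± 0.849 in si mH2A1.1 and 95.5% ± 1.74 in si mH2A1.2. The share of Ptgds fell from 15.1% ± 1.64 to 7.43% ± 0.816 and 3.15% ± 0.785, with no overlap between groups.

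**Figure D3:**
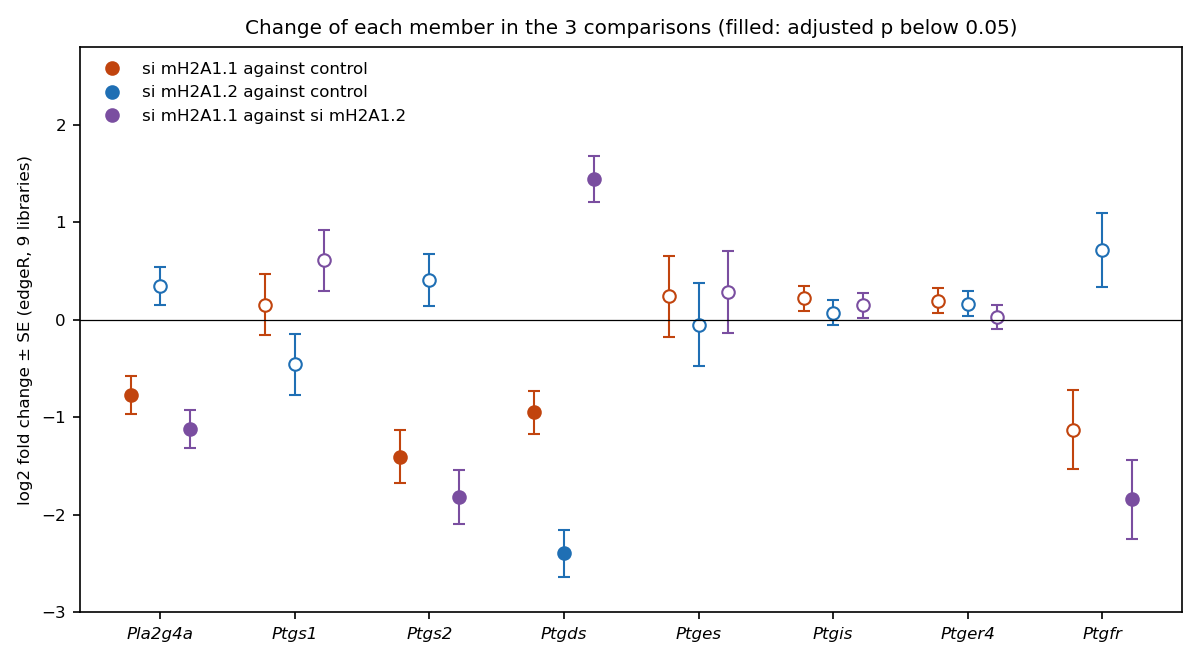
Log2 fold change ± SE of 8 members in the 3 comparisons, from the edgeR fit of all 9 libraries, with filled points for an adjusted p below 0.05. Pla2g5, at 0 counts in 2 of the groups, and Ptger2, which was too low to test, are not drawn. Ptgs2 and Pla2g4a are below 0 in si mH2A1.1 against control and lower still against si mH2A1.2, while Ptges, Ptgis and Ptger4 stay within 0.29 of 0.

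The receptors were expressed at low levels. Ptgfr, the Gq-coupled receptor of prostaglandin F2α, ordered the groups as Ptgs2 and Pla2g4a did. It was at 2.09, 2.88 and 1.73 CPM in control and at 0.40, 1.19 and 1.47 CPM in si mH2A1.1. In si mH2A1.2 it stood at 2.89, 4.59 and 3.52 CPM, and none of the 3 ranges overlapped, the highest control lying just under the lowest si mH2A1.2 library. Ptgfr differed between the knockdowns, with a log2 fold change of −1.84 ± 0.40 in si mH2A1.1 against si mH2A1.2 (edgeR adjusted p = 0.0104). Against control it did not pass for si mH2A1.1, at −1.12 ± 0.40 (edgeR adjusted p = 0.0951), or for si mH2A1.2, at 0.72 ± 0.38 (edgeR adjusted p = 0.41). By DESeq2 the adjusted p for si mH2A1.1 against control was 0.0376.

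Ptger2 and Ptger4 encode the Gs-coupled prostaglandin E2 receptors EP2 and EP4. Ptger4 was at 8.59, 9.73 and 7.92 CPM in control, 10.7, 9.19 and 10.2 CPM in si mH2A1.1 and 9.30, 10.2 and 9.94 CPM in si mH2A1.2. These ranges overlapped, and the log2 fold changes against control were 0.20 ± 0.13 and 0.17 ± 0.13 (edgeR adjusted p = 0.33 and 0.589). Ptger4 shares 82 of 6648 exon bases with Ttc33 and 1015 with Gm15937, both on the opposite strand. Genes on the opposite strand likewise share 148 of 3884 exon bases of Ptgs1, 156 of 2567 of Ptgis and 329 of 6778 of Ptgfr, and without a stated strand setting reads from shared bases cannot be assigned. Ptger2 had 0, 2 and 0 counts in control, 3, 0 and 1 in si mH2A1.1 and 1, 0 and 0 in si mH2A1.2. It was too low to be tested, and a change in Ptger2 was not detectable at this depth, at which 3 counts correspond to 0.0711 to 0.0812 CPM.

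Between genes, levels were compared per kb of exon. In control the order was Ptgs1 (86.4 CPM per kb), Ptgis (19.3), Ptgs2 (8.69), Pla2g4a (3.54), Ptgds (3.52), Ptger4 (1.32), Ptgfr (0.329), Ptges (0.287), Ptger2 and Pla2g5. The ranges of Pla2g4a and Ptgds overlapped, as did those of Ptgfr and Ptges, and of Ptger2 and Pla2g5, and all other neighbours in the order were apart in their ranges. In si mH2A1.2 Ptgds stood below Ptger4, at 0.669 against 1.48 CPM per kb. In si mH2A1.1 Pla2g5 (0.272 CPM per kb) reached the level of Ptges (0.339) and of Ptgfr (0.150), with overlapping ranges.

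The 3 members with the largest spread between group means were each set beside the genes most like them in log2 CPM over the 9 libraries. For Pla2g5 these were Lilr4b (Pearson r = 0.997), Fam177a (0.996) and Cd300ld3 (0.995), correlations that rest on 6 libraries at 0 counts and 3 above. For Ptgds they were Rfx2 (0.963), Pla2g3 (0.962), itself a secreted phospholipase A2, and Klhdc10 (0.959). For Ptgfr they were Kmt2a (0.988), Gm16892 (0.984) and Nipbl (0.983). These were the highest of all genes tested, so their size describes a choice among many.

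The rest of the pathway was followed in a list of 77 other genes, of which 54 were tested. Of these, 9 changed in si mH2A1.1 against control, 6 higher and 3 lower. In si mH2A1.2 against control 4 changed, 2 in each direction, and the same comparison with the replicate number as a block gave 9. Between the knockdowns 17 changed, 10 higher and 7 lower in si mH2A1.1. The shares of all genes are those given above, which hold for the main fit and not for the block. The median log2 fold change of the list was 0.01, −0.10 and 0.22.

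Of the 17 genes of arachidonate release tested, 5 were higher with si mH2A1.1 than in control by edgeR (6.18% of all genes were). None was lower (4.93% of all genes were), and the others did not pass. With the replicate number as a block 7 passed, adding Mgll, higher (0.82, edgeR adjusted p = 0.0131), and Pla2g16, lower (−0.43, edgeR adjusted p = 0.0259). DESeq2 called 6. Pla2g2e, a secreted phospholipase A2 next to Pla2g5 on chromosome 4 (14459 bases apart), had 2.06, 1.71 and 2.24 CPM in control, 5.58, 5.78 and 5.46 in si mH2A1.1 and 2.17, 1.41 and 1.88 in si mH2A1.2. Its si mH2A1.1 libraries were all above the others (log2 fold change 1.48 ± 0.20, edgeR adjusted p = 0.00364). Pla2g2d, on the other side of Pla2g5 and 17197 bases from it, stayed at 2 to 8 counts in every library. Pla2g4e, an intracellular relative of Pla2g4a that makes N-acyl phospholipids, rose from 0.265 to 1.25 CPM (log2 fold change 2.23 ± 0.35, edgeR adjusted p = 0.0059). Faah, which breaks down anandamide, rose from 0.397 to 1.03 CPM (1.38 ± 0.29, edgeR adjusted p = 0.0182), and Pla2g7, which hydrolyses platelet-activating factor, rose from 1.73 to 3.92 CPM (1.18 ± 0.25, edgeR adjusted p = 0.0197). The fifth was Anxa1, annexin A1, an inhibitor of phospholipase A2, named after its values were seen, at 412 and 708 CPM (0.78 ± 0.13, edgeR adjusted p = 0.00723). Of these 5, Anxa1 acts against arachidonate release, and Faah and Pla2g7 act on other lipids. With libraries left out in turn, Pla2g7 lost its call without control replicate 3 or si mH2A1.1 replicate 1 (edgeR adjusted p up to 0.0705), and Faah without control replicate 2 or 3 or si mH2A1.1 replicate 1 or 3 (up to 0.0697).

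With si mH2A1.2 against control, Pla2g3 fell (1.37 to 0.608 CPM, log2 fold change −1.17 ± 0.25, edgeR adjusted p = 0.0422) and the lysosomal phospholipase Pla2g15 rose. Pla2g15 was at 16.5, 17.1 and 16.9 CPM in control and at 25.6 CPM in each si mH2A1.2 library (0.61 ± 0.09, edgeR adjusted p = 0.0161). Pla2g3 lost its call without any 1 of the 9 libraries (edgeR adjusted p up to 0.149), and Pla2g15 without control replicate 1 or 3 or si mH2A1.2 replicate 1 or 2 (up to 0.0691).

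Breakdown of prostaglandins begins with 15-hydroxyprostaglandin dehydrogenase, Hpgd. It had 6.72, 6.16 and 5.47 CPM in control, 1.11, 1.83 and 1.27 CPM in si mH2A1.1 and 1.46, 3.86 and 2.58 CPM in si mH2A1.2. All knockdown libraries were below all controls. Hpgd fell with si mH2A1.1 (log2 fold change −2.12 ± 0.33, edgeR adjusted p = 0.00537). With si mH2A1.2 its value was −1.21 ± 0.31 (edgeR adjusted p = 0.0809, or 0.0319 with the replicate number as a block). Ptgr1, prostaglandin reductase 1, which acts after Hpgd, rose with si mH2A1.1 from 40.3 to 62.9 CPM (0.64 ± 0.15, edgeR adjusted p = 0.027), a call that was lost without any 1 control library or si mH2A1.1 replicate 1 (edgeR adjusted p up to 0.0994). The prostaglandin transporter Slco2a1 was at 0.430, 0.444 and 0.663 CPM in the 3 groups and passed the test in none of the comparisons.

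**Figure D4:**
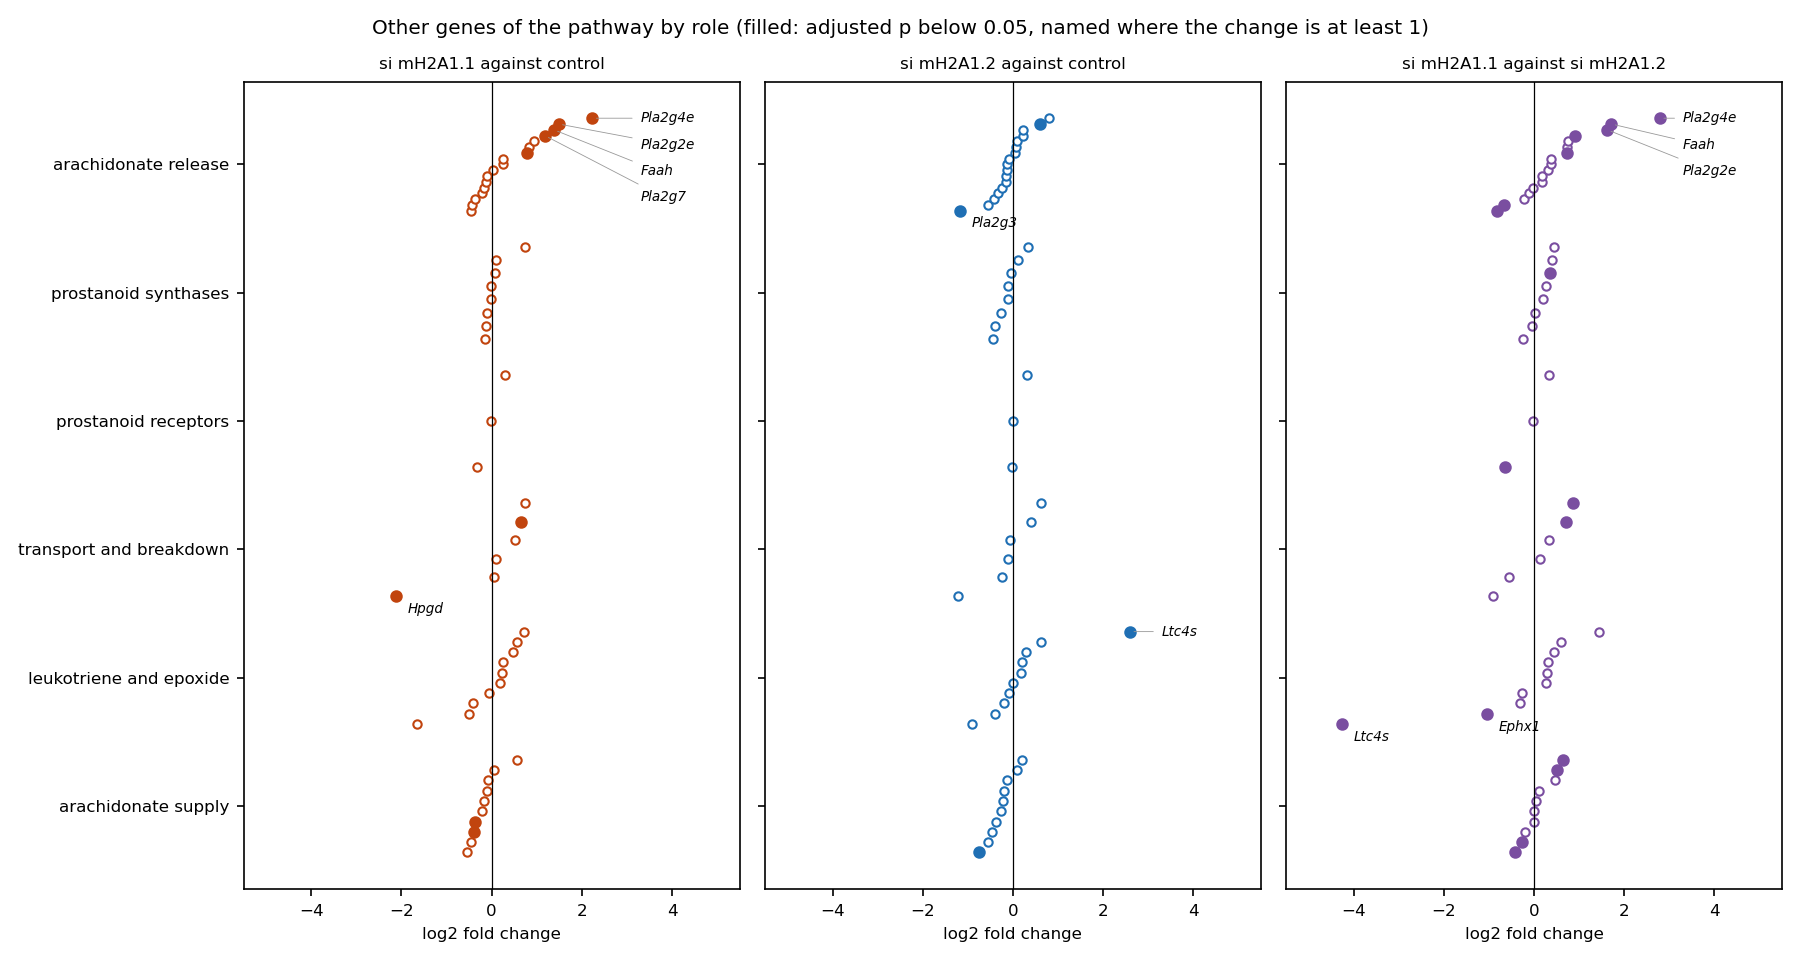
Log2 fold change of the 54 other pathway genes tested, arranged by role, in the 3 comparisons. Filled points have an adjusted p below 0.05, and those with a change of at least 1 are named. The filled points of arachidonate release lie right of 0 in si mH2A1.1 against control, where Hpgd lies furthest to the left.

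Of the other synthases, none of 8 tested changed in either knockdown against control by edgeR. At an unadjusted p below 0.05 there were 0 in si mH2A1.1 and 2 in si mH2A1.2, and DESeq2 called 0 and 1. Of all 19545 genes tested, 5789 and 3109 had an unadjusted p below 0.05 in these comparisons. Hpgds, the haematopoietic prostaglandin D synthase and the other source of prostaglandin D2, was at 0.675, 0.618 and 0.730 CPM in control, si mH2A1.1 and si mH2A1.2. Tbxas1, thromboxane synthase, was at 0.441, 0.733 and 0.553 CPM. Ptges2 alone differed between the knockdowns (28.01 against 21.99 CPM, 0.35 ± 0.11, edgeR adjusted p = 0.0433), and its call held only without si mH2A1.1 replicate 2 when libraries were left out (otherwise up to 0.135). Of the other receptors, Ptger1 was at 2.47, 2.43 and 2.48 CPM and the prostacyclin receptor Ptgir at 4.65, 5.73 and 4.56 CPM, and neither passed. Ptger3, Ptgdr and Tbxa2r had at most 7, 9 and 14 counts in any library and were not tested. In the receptor group Ptgfrn, a negative regulator of the prostaglandin F2α receptor, was lower in si mH2A1.1 than in si mH2A1.2 (301 against 467 CPM, −0.64 ± 0.16, edgeR adjusted p = 0.0191). Without si mH2A1.1 replicate 1 or si mH2A1.2 replicate 2 that call was lost (edgeR adjusted p up to 0.0686).

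Of 14 known inducers and mRNA regulators of cyclooxygenase-2, 12 were tested. In si mH2A1.1 against control 2 changed, in opposite directions, where 11.1% of all genes changed. The interleukin-1 receptor Il1r1 fell from 53.7, 54.3 and 57.3 CPM to 36.5, 39.4 and 39.6 CPM (log2 fold change −0.52 ± 0.08, edgeR adjusted p = 0.00642), and its ligand Il1b rose from 0.309 to 1.28 CPM (2.04 ± 0.47, edgeR adjusted p = 0.0251). With si mH2A1.2, where 2.35% of all genes changed, Il1r1 alone changed (2 genes with the replicate number as a block). It was higher, at 68.5, 69.1 and 75.8 CPM (0.37 ± 0.08, edgeR adjusted p = 0.0496). Il1r1 thus ordered the 3 groups as Ptgs2 did, with no overlap. Between the knockdowns Il1r1, Nfkb1, Cebpd and Zfp36l1 were lower in si mH2A1.1, and none of the list was higher. Of all genes 10.5% were lower and 12.0% higher there. Zfp36l1, which binds AU-rich mRNA, was at 85.5 against 163 CPM (−0.93 ± 0.14, edgeR adjusted p = 0.00186). The calls of Il1r1 in si mH2A1.1 and between the knockdowns, and of Zfp36l1, held without any 1 library. The call of Il1b was lost without any 1 control library or si mH2A1.1 replicate 1 or 3 (edgeR adjusted p up to 0.086), and that of Il1r1 in si mH2A1.2 in 8 of the 9 fits, all but the one without si mH2A1.1 replicate 1 (up to 0.1795). Nfkb1 and Cebpd lost theirs without any 1 si mH2A1.1 library or si mH2A1.2 replicate 2 or 3.

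Of 12 cAMP-responsive genes, which lie downstream of Gs-coupled receptors such as EP2 and EP4, 4 changed in si mH2A1.1 against control (11.1% of all genes did), 1 in si mH2A1.2 against control (2.35%) and 6 between the knockdowns (22.5%). In si mH2A1.1 against control Crem (0.81 ± 0.18) and Sik1 (0.48 ± 0.10) rose, and Per1 (−1.23 ± 0.34) and Has2 (−0.37 ± 0.09) fell, on the log2 scale (edgeR adjusted p = 0.0197, 0.0205, 0.044 and 0.0262). Of the 12, 6 had every si mH2A1.1 library below every control, and 2 had every one above. The share of all genes with libraries apart in this way was not counted, so nothing is read from these counts. The 6 held Per1, Has2 and, named after their values were seen, Nr4a1 (−0.55), Nr4a2 (−0.89), Nr4a3 (−1.35) and Pde4d (−0.52). Those named last did not pass (edgeR adjusted p = 0.132, 0.061, 0.058 and 0.0698). With the replicate number as a block 8 of the list passed, and DESeq2 called 7. The shares of all genes under these 2 settings were not counted, and the 11.1% above is that of the main fit. In si mH2A1.2 Sik1 fell (−0.56 ± 0.11, edgeR adjusted p = 0.028), so the knockdowns moved it in opposite directions. Of the 6 between the knockdowns, 2 were higher and 4 lower in si mH2A1.1. When libraries were left out, the 4 calls of si mH2A1.1 against control were lost in 4 to 6 of the 9 fits each, with edgeR adjusted p up to 0.160 for Per1, up to 0.102 for Has2, up to 0.0871 for Sik1 and up to 0.080 for Crem. Each of the 4 lost its call without si mH2A1.1 replicate 1, si mH2A1.1 replicate 3 or control replicate 2, Crem and Sik1 also without control replicate 1, Has2 and Per1 without control replicate 3, and Per1 without si mH2A1.1 replicate 2 or si mH2A1.2 replicate 2. Sik1 in si mH2A1.2 lost its call without control replicate 1 or 3 or si mH2A1.2 replicate 1 or 2 (edgeR adjusted p up to 0.0999).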

How the data were processed

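RNA-seq was analysed from 9 libraries of C2C12 myotubes. According to the methods and labels, the authors quantified polyadenylated RNA from single reads of 50 bases with Salmon against mm10 and summarised it per gene. The deposited table holds estimated counts (expected counts) per Ensembl gene, whole numbers without normalization. A second deposited table, of normalized counts, was not used. Library strandedness was not given in the sources used here. Names came from GENCODE M21 for 52762 of 52780 genes, and promoter windows from RefSeq (GRCm38.p6), with an entry for 9 of the 10 members.

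Genes were filtered with filterByExpr, normalised by TMM and tested with edgeR 4.0.16 (quasi-likelihood, R 4.3.3) in 1 model of all 9 libraries with 3 contrasts. The p-values were adjusted by Benjamini-Hochberg over 19545 genes, and an adjusted p below 0.05 was called. The study describes the replicates as independent. CPM per kb used the merged exons of each gene. Correlations used log2 CPM with a prior count of 2. Scripts were tested on simulated data.

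The members and gene lists were chosen with earlier results of these data known. All members were named, and of each other list at most 5 called genes per comparison with the largest change, together with Hpgd, Ptgr1, Slco2a1 and the other prostanoid receptors and synthases named whatever their values, and H2afy. Other genes named after their values were seen are marked so or belong to a count of 5 or fewer.

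Replicate numbers, which the labels give in every group, were checked for pairing. Between si mH2A1.2 and control, same-numbered libraries deviated together (r of 0.196 to 0.331, against −0.267 to 0.0358 for different numbers), so the numbers were taken to pair those libraries. The main fit held the condition only, also for that comparison, so its p-values leave the pairing out. It entered only through the replicate block, an alternative whose values are named as such. Shares of all genes called were counted in the main fit only, so list counts with the block or by DESeq2 have none beside them. For si mH2A1.1 against control the same-number correlations were 0.0841 to 0.0976, against −0.0739 to −0.0213 for different numbers. Between the knockdowns they were 0.0917 to 0.116, against −0.0961 to −0.0122. There too every same-number value was above every different-number value. The library names also carry consecutive numbers within each replicate number, over control and both knockdowns. Names and correlations are thus what pairing would give in the comparisons with si mH2A1.1 as well. Those libraries were not taken as paired only because their same-number values were smaller than for si mH2A1.2 against control. That size does not exclude pairing, and the main p-values of these comparisons leave it out too. Alternatives were DESeq2 1.42.0, its size factors in edgeR, other filters, a replicate block, fits of only the 6 libraries compared, a stricter rule, each library left out and, added after seeing the data, the newer quasi-likelihood form. Values after ± are SDs over libraries or SEs derived from the edgeR fit, and both include differences between libraries. Each SE was the absolute log2 fold change divided by the square root of the quasi-likelihood F statistic. Floors in counts cover counting error only.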

Additional observations from a re-analysis of the deposited data

How the results depend on the processing

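Of the members, 4 changed in si mH2A1.1 against control, and between 1 and 4 when each of the 9 libraries was left out in turn. The lowest, 1, came without si mH2A1.1 replicate 1, and it was 2 without control replicate 1, 2 or 3 or si mH2A1.1 replicate 3. A stricter rule, an adjusted p under 0.01 with a log2 change of 0.8 or more in size, gave 1. In the other comparisons the counts of 1 and 5 members did not move when any library was left out. Of the 77 other pathway genes, 9 changed in si mH2A1.1 against control, 16 by DESeq2, 18 with the replicate block, 3 by the stricter rule, and 4 to 17 with a library left out (4 without control replicate 3 or si mH2A1.1 replicate 1, 5 without control replicate 2, 17 without si mH2A1.1 replicate 2). In si mH2A1.2 against control the 4 became 10 by DESeq2, 9 with the replicate block, 0 by the stricter rule, and 0 to 4 with a library left out (0 without control replicate 1 or 3 or si mH2A1.2 replicate 1 or 2). Between the knockdowns the 17 became 6 by the stricter rule and 10 to 18 with a library left out (10 without si mH2A1.1 replicate 1, 11 without si mH2A1.2 replicate 2). The shares of all genes called under these settings were not counted. The block in si mH2A1.1 against control brought the adjusted p of Ptgfr to 0.0441, and it changed no other call of a member in the 3 comparisons. Signs turned for some small changes that passed no test when a library was left out: Ptgs1 in si mH2A1.1 (−0.21 to 0.38), Ptges (−0.78 to 0.28) and Ptgis (−0.033 to 0.15) in si mH2A1.2, and between the knockdowns Ptges (−0.039 to 1.02) and Ptger4 (−0.018 to 0.088). Scaled by the longest transcript, control levels moved to 6.55 (Pla2g4a), 117 (Ptgs1), 4.37 (Ptgds), 23.6 (Ptgis) and 2.32 CPM per kb (Ptger4). These levels divide the same CPM by the longest transcript, which is shorter than the merged exons. The cause of the moved calls and signs was not tested.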

Other observations

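The leukotriene, lipoxygenase and epoxide branch and the supply of arachidonate were not described above. Ltc4s, leukotriene C4 synthase, had the largest difference of the 54 other pathway genes tested between the knockdowns. It was at 0.455, 1.68 and 0.877 CPM in control, 0.198, 0.568 and 0.184 CPM in si mH2A1.1 and 5.01, 8.85 and 4.38 CPM in si mH2A1.2. All si mH2A1.2 libraries were above every other library, with a log2 fold change of 2.595 ± 0.49 against control (edgeR adjusted p = 0.0291) and of −4.26 ± 0.56 for si mH2A1.1 against si mH2A1.2 (edgeR adjusted p = 0.000915). Ephx1, the microsomal epoxide hydrolase, was at 109 CPM in si mH2A1.1 and 223 CPM in si mH2A1.2 (−1.03 ± 0.18, edgeR adjusted p = 0.00401). The calls between the knockdowns held without any 1 library, and that of Ltc4s against control was lost without control replicate 1 or 3 or si mH2A1.2 replicate 1 or 2 (edgeR adjusted p up to 0.1099). With the replicate number as a block Ephx1 also passed in si mH2A1.2 against control (0.62, edgeR adjusted p = 0.0165, and 0.118 without the block). No other gene of the 10 tested in this branch was called in the 3 comparisons by edgeR without the block.

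Of 10 genes of arachidonate supply tested, 2 changed in si mH2A1.1 against control, both lower (4.93% of all genes were). Both were named after their values were seen. They were the fatty acid desaturase Fads2 (−0.38 ± 0.09, edgeR adjusted p = 0.033) and the elongase Elovl5 (−0.39 ± 0.09, edgeR adjusted p = 0.02). In si mH2A1.2 against control Acsl1, an acyl-CoA synthetase, fell from 34.9 to 20.9 CPM (−0.74 ± 0.13, edgeR adjusted p = 0.021). With the replicate number as a block Fads2 (edgeR adjusted p = 0.0468), Acsl4 (0.0336) and Acsl6 (0.0496) also passed in that comparison, all lower. Leaving libraries out, Fads2 lost its call in 6 of 9 fits (edgeR adjusted p up to 0.105) and Elovl5 in 5 (up to 0.0802), in each case without any 1 control library or si mH2A1.1 replicate 1 or 3, and for Fads2 also without si mH2A1.2 replicate 2. Acsl1 lost it without control replicate 1 or 3 or si mH2A1.2 replicate 1 or 2 (up to 0.0746).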
